A study of Mus musculus with 30 samples.

Results

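The genes Rpl29, Ppm1m, Parp3, Abhd14b, Acy1, Glyctk and Hemk1, which lie around Rpl29 on mouse chromosome 9, are described here as 7 of the 35120 genes in the count table. They were chosen because their level followed the genotype label library by library, apart from 3 libraries named with them, so their difference between labels is a description and carries no test here. The libraries come from mice labelled Ctnnb1AdKO, an adipocyte knockout of β-catenin, and from sex- and age-matched Ctnnb1fl/fl controls, so all groups carry floxed Ctnnb1 alleles. Ctnnb1, which encodes β-catenin, lies on chromosome 9 too. There were 6 groups: adipocytes of male controls (n = 6), male knockouts (n = 5), female controls (n = 6) and female knockouts (n = 6), and stromal-vascular cells (SVC) of male controls (n = 3) and male knockouts (n = 4). Adipocytes float after collagenase digestion of white fat, and SVC, a mixture of progenitor, immune, endothelial and other cells, form the pellet. The labels give epididymal and posterior subcutaneous fat as the source of every library. This wording is the same for both sexes and names both depots, so it does not tell the depot of a single library. The labels do not say which promoter drives the Cre, which exons it deletes, or the strain background and age of the mice. They do not say that replicate numbers are separate mice, so p-values here measure the spread among libraries, which may be technical.

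β-catenin links cadherins to the cytoskeleton and carries the canonical Wnt signal, in which it enters the nucleus and binds TCF/LEF factors at their target genes. A floxed allele is made by editing the gene on the chromosome of an embryonic stem cell line, and sequence next to the edited gene is inherited with it until recombination separates them. Genes of that flanking sequence can therefore carry the variants of the stem cell line's strain. Both labels carry floxed Ctnnb1 alleles here, so such sequence can be present in controls and in knockouts, and its extent in each library is not known. Counts per gene hold no allele information, and sequence variants were not analysed here.

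Total counts lay between 20484836 and 22209603 per library. The summed level of 8 adipocyte markers was 27340 to 49720 CPM (counts scaled to the library total) in the 23 adipocyte libraries and 984 to 2172 CPM in the 7 SVC libraries, so the fractions bore out their labels. Ctnnb1 was at 308 to 341 CPM in male control adipocytes, 308 to 368 CPM in male knockout adipocytes, 291 to 359 CPM in female control adipocytes and 283 to 367 CPM in female knockout adipocytes, and these ranges overlapped. In SVC it was at 442 to 553 CPM in controls and 353 to 748 CPM in knockouts. A gene-level count sums all exons and can stay level after a partial deletion, and exon counts were not analysed here. The 3 libraries named as exceptions are male control adipocyte library 5 (column 5-WT5AM), female knockout adipocyte library 2 (column 29-KO2AF) and male control SVC library 3 (column 15-WT5SM). The fold changes of the 7 genes are given with and without them. Since they were named for their place in these genes, values without them are a description. The column number WT5 stands in both fractions, and the labels do not say whether those libraries share a mouse.

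Rpl29 encodes a protein of the large ribosomal subunit, and many processed copies of it lie elsewhere in the genome. Of the 1289 stretches of 50 bases in its annotated transcripts, 35.1% occur in at least 1 other annotated gene, so reads from them can be given to a copy. The copies Gm8210 on chromosome 1 and Gm13841 on chromosome 5 have no base difference from each other over 483 bases. Both differ from the reference coding sequence of Rpl29 (GENCODE M21, assembly GRCm38) at 3 of 483 bases, written C72A, C300T and T423C with the base of Rpl29 first, positions counted from 1 at the A of the start codon and the base of the copies last. The stretches around these 3 positions are shown because they are the places in the coding sequence where a read can tell Rpl29 from these copies. The differing base is in capitals, and the stretch of Gm13841 is the same as that of Gm8210.
Rpl29, bases 52 to 92: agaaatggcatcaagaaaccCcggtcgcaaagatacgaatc
Gm8210, bases 52 to 92: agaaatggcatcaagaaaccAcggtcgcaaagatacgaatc
Rpl29, bases 280 to 320: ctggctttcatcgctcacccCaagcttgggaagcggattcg
Gm8210, bases 280 to 320: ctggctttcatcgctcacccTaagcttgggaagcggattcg
Rpl29, bases 403 to 443: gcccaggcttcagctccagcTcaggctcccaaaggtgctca
Gm8210, bases 403 to 443: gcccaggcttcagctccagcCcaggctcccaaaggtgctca
Identity with Rpl29 was 99.4% for either copy, and the longest run with no difference was 227 bases. None of the 50-base stretches of Ppm1m, Parp3, Abhd14b, Acy1 or Hemk1 occur in another annotated gene, and 0.229% of those of Glyctk do.

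Promoters are shown for 4 members: Ppm1m and Parp3, which followed Rpl29 most closely, and Abhd14b and Hemk1, which hold a match to a TCF/LEF motif. Of these, Hemk1 differed between the labels in adipocytes in the opposite direction. Each sequence is the 250 bases before an annotated start of the gene, from RefSeq (GRCm38.p6), written 5′ to 3′ on the gene's strand, with motif matches in capitals.
Ppm1m, chr9:106199234-106199483, minus strand: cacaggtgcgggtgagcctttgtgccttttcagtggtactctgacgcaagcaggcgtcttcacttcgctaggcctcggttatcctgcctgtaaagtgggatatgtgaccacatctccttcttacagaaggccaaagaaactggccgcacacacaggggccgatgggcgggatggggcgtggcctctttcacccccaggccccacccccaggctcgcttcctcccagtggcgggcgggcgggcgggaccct
Parp3, chr9:106476950-106477199, minus strand: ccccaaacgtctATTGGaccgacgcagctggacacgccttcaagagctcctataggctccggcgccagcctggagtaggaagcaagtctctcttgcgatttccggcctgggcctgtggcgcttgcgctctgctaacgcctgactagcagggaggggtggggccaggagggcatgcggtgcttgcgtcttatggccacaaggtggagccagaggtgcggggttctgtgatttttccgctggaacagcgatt
Abhd14b, chr9:106448390-106448639, plus strand: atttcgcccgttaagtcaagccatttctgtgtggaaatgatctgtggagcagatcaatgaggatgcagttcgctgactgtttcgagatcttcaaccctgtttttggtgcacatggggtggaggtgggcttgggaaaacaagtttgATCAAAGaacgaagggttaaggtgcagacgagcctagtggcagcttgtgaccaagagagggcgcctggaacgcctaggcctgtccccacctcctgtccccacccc
Hemk1, chr9:107338351-107338600, minus strand: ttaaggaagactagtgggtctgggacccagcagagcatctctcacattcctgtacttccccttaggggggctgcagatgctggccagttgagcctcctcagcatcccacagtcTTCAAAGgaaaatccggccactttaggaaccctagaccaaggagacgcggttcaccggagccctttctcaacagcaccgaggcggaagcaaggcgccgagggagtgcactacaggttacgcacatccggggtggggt
The motifs searched on both strands were 2 forms of the TCF/LEF motif, the E-box, the TATA box and the CCAAT box, and no match overlapped another in these windows. Promoters of 6 of the 7 genes, all but Rpl29, were matched in the RefSeq table. The TCF/LEF form CTTTGAT was found in Abhd14b only among these 6, and in 3.21% of 32851 promoter windows of the same length. The TCF/LEF form CTTTGAA was found in Hemk1 only among the 6, and in 4.46% of all windows. The CCAAT box was found in Parp3 and Glyctk and in 33.9% of all windows. The E-box, CACGTG, was found in Acy1 and in 6.02% of all windows. The TATA box, TATAAA, was found in 0 of the 6 and in 12.4% of all windows. These are matches of letters and not sites shown to be used. The printed windows were 61.2% G and C in Parp3, 62.8% in Ppm1m, 53.2% in Abhd14b and 58.0% in Hemk1, against a median of 52.4% over all windows. Ppm1m has another annotated window, not printed, which was 77.6% G and C and held no match to these motifs.

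Rpl29 was higher in the knockout libraries of every set, apart from the named libraries. In male adipocytes the controls were at 30.2, 33.4, 28.3, 29.8, 100.1 and 28.4 CPM and the knockouts at 96.7, 90.2, 91.0, 96.1 and 126.7 CPM. Control library 5, at 100.1 CPM, lay inside the knockout range, and the other 5 controls lay below every knockout. In female adipocytes the controls were at 31.1, 31.3, 32.7, 30.8, 19.8 and 21.7 CPM and the knockouts at 89.2, 25.8, 109.5, 146.7, 87.9 and 97.1 CPM. Knockout library 2, at 25.8 CPM, lay inside the control range, and the other 5 knockouts lay above every control. In male SVC the controls were at 30.4, 26.6 and 168.0 CPM and the knockouts at 140.1, 141.9, 143.7 and 143.1 CPM. Control library 3, at 168.0 CPM, was the highest of the 30 libraries, and the other 2 SVC controls lay at the level of the adipocyte controls.

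**Figure D1:**
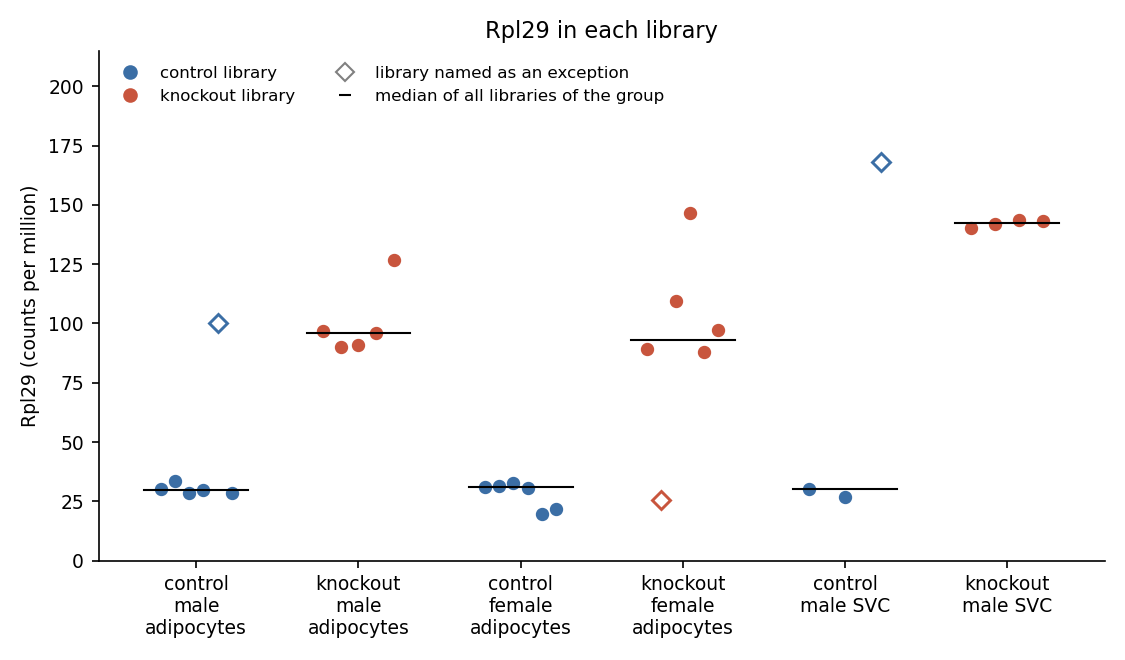
Level of Rpl29 (vertical axis, CPM) in each of the 30 libraries, grouped by label, with the median of each group as a bar. The libraries form a low band from 19.8 to 33.4 CPM and a high band from 87.9 to 168.0 CPM, and the open diamonds, the libraries named as exceptions, lie in the band of the other label.

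Over all libraries the log2 fold change of Rpl29, knockout against control, was 1.23 (SE 0.33) in male adipocytes, 1.80 (SE 0.32) in female adipocytes and 0.85 (SE 0.73) in SVC. Without the 3 named libraries it was 1.70, 1.99 and 2.44. A bulk count cannot tell less RNA of a gene per cell from fewer cells that make it.

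Ppm1m, which encodes a serine/threonine phosphatase of the PP2C family, followed Rpl29 in adipocytes and not in SVC. In male adipocytes the controls were at 81.1, 87.6, 85.5, 82.6, 147.0 and 77.2 CPM and the knockouts at 140.8, 143.1, 151.8, 153.4 and 155.4 CPM. In female adipocytes the controls were at 45.3, 48.1, 56.3, 56.9, 56.7 and 63.5 CPM and the knockouts at 89.2, 42.5, 99.9, 95.7, 101.0 and 84.9 CPM. Control library 5 of the males was again inside the knockout range, and knockout library 2 of the females was below every control. In SVC the controls, at 44.5, 52.9 and 58.3 CPM, and the knockouts, at 51.7, 53.7, 63.4 and 41.2 CPM, overlapped. The log2 fold changes were 0.63 (SE 0.18) in males, 0.71 (SE 0.17) in females and 0.03 (SE 0.21) in SVC, and 0.81, 0.85 and 0.23 without the named libraries.

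Parp3 encodes a mono-ADP-ribosyltransferase that acts at DNA strand breaks. Its male adipocyte controls were at 60.6, 70.9, 66.6, 67.3, 122.1 and 59.9 CPM and the knockouts at 135.2, 116.8, 118.5, 111.8 and 121.4 CPM. The female controls were at 106.2, 114.4, 70.1, 80.9, 84.7 and 100.1 CPM and the knockouts at 138.2, 86.7, 155.1, 148.5, 143.8 and 150.3 CPM. The groups were apart in both sexes once the named library was set aside. In SVC the controls, at 27.1 to 33.2 CPM, and the knockouts, at 28.6 to 39.9 CPM, overlapped. The log2 fold changes were 0.66 (SE 0.17), 0.63 (SE 0.16) and 0.12 (SE 0.18) in males, females and SVC, and 0.85, 0.73 and 0.23 without the named libraries.

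Abhd14b encodes an α/β-hydrolase. In male adipocytes the controls were at 31.2, 30.6, 27.4, 28.7, 46.3 and 33.8 CPM and the knockouts at 45.1, 50.7, 54.3, 53.2 and 42.3 CPM. In female adipocytes the controls lay between 20.6 and 25.6 CPM, and the knockouts at 33.6, 19.8, 42.1, 29.6, 34.9 and 44.9 CPM. Both named adipocyte libraries, at 46.3 and 19.8 CPM, were on the side of the other label. The log2 fold changes were 0.54 (SE 0.16) in males, 0.64 (SE 0.15) in females and 0.31 (SE 0.29) in SVC, and 0.66, 0.75 and 0.30 without the named libraries. The annotated extents of Abhd14b and its neighbour Abhd14a overlap by 3467 bases, and the strand setting of the counting is not given in the sources used here, so reads of the overlap could be given to either. Abhd14a had log2 fold changes of 0.00 in males and 0.24 in females.

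Glyctk encodes glycerate kinase, which feeds glycerate from serine and fructose breakdown into glycolysis, and was the lowest of the 7 genes. In male adipocytes the controls lay between 2.44 and 3.33 CPM and the knockouts between 3.08 and 4.38 CPM. In female adipocytes the controls lay between 2.21 and 3.97 CPM and the knockouts between 3.79 and 6.17 CPM. These ranges overlapped, and both named adipocyte libraries were nearer to their own label, at 2.99 CPM and 4.09 CPM. The log2 fold changes were 0.31 (SE 0.15) in males and 0.67 (SE 0.15) in females, and 0.32 and 0.70 without the named libraries. In SVC it was 1.32 (SE 0.90), and 1.08 without control library 3, with knockout library 4 at 8.16 CPM and the other 6 SVC libraries at 0.566 to 2.10 CPM. The annotated extent of Glyctk overlaps the long non-coding RNA gene D030055H07Rik by 7300 bases and the microRNA gene Mir135a-1 by 90 bases. The limit on read assignment given for Abhd14b therefore holds for Glyctk too.

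Acy1 and Hemk1 went the other way. Hemk1, which encodes a methyltransferase of mitochondrial translation release factors, was in male adipocytes at 34.4, 39.0, 40.3, 35.7, 19.9 and 37.2 CPM in controls and at 21.9, 23.6, 25.3, 21.7 and 30.5 CPM in knockouts. In female adipocytes it was at 42.0, 35.1, 43.4, 40.2, 33.1 and 31.5 CPM in controls and at 23.1, 36.4, 24.8, 27.2, 24.0 and 24.8 CPM in knockouts. The 2 named libraries, at 19.9 CPM and 36.4 CPM, again lay with the other label, and without them the groups did not overlap. The log2 fold changes were -0.52 (SE 0.15) in males and -0.42 (SE 0.14) in females, and -0.64 and -0.54 without the named libraries. In SVC it was 0.21 (SE 0.40) with or without control library 3, with knockout library 4 at 13.9 CPM and the other 6 libraries at 5.47 to 7.67 CPM.

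Acy1 encodes aminoacylase 1, which frees amino acids from their N-acetyl forms. In male adipocytes the controls were at 14.2, 11.6, 11.9, 13.2, 9.79 and 12.0 CPM and the knockouts at 8.36, 8.46, 9.30, 7.35 and 9.71 CPM. Every male control was above every knockout, and control library 5 was the lowest control. In females the controls, at 11.6 to 18.9 CPM, and the knockouts, at 11.0 to 13.7 CPM, overlapped. The log2 fold changes were -0.53 (SE 0.11) in males, -0.18 (SE 0.11) in females and -0.04 (SE 0.26) in SVC, and -0.58, -0.21 and -0.15 without the named libraries.

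**Figure D2:**
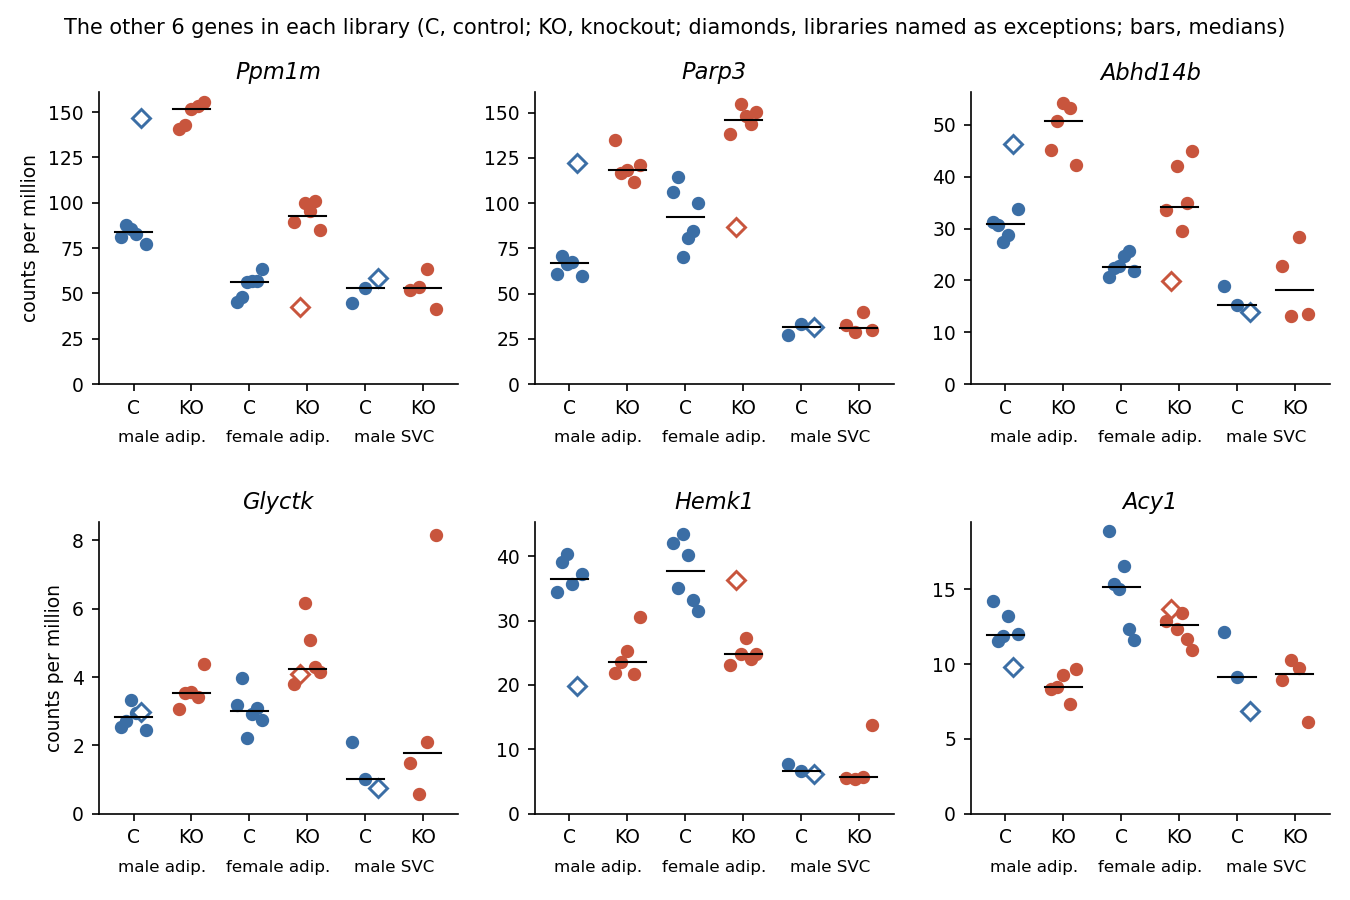
Levels (vertical axis, CPM) of Ppm1m, Parp3, Abhd14b, Glyctk, Hemk1 and Acy1 in each library, by group, with medians as bars. In adipocytes Ppm1m, Parp3 and Abhd14b were higher and Hemk1 lower in knockouts, with the diamonds on the side of the other label, while in SVC the labels overlapped for all 6 genes.

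By the quasi-likelihood test of edgeR with Benjamini-Hochberg adjustment over all genes tested, 0 of the 7 genes were called below 0.05 in male adipocytes, 2 in female adipocytes (Rpl29 and Glyctk), all 7 in the mean effect over both sexes, and 0 in SVC. The share of all tested genes called was 0.0703% (10 of 14227) in males, 0.471% (67 of 14227) in females, 0.759% (108 of 14227) in the mean effect, and 0.0% of 16404 genes in SVC. The 7 genes were chosen on these contrasts, so nothing is read from these calls or from whether they held in the settings below. As single libraries were left out, the calls of Rpl29, Ppm1m, Parp3 and Abhd14b in the mean effect held. That of Glyctk ended without male control 1, and those of Acy1 and Hemk1 each ended without male control 1 or 4, male knockout 1, 2 or 4 or female control 3, and that of Hemk1 also without female knockout 1. All 3 ended with the replicate number as a block. The call of Glyctk in females ended without female control 1, 3, 4 or 6 or female knockout 3, 4 or 5, and that of Rpl29 there held. Of the 7, 6 had an unadjusted p under 0.05 in males, beside 1861 of all genes, and 0 in SVC, beside 429. DESeq2 called 3 of the 7 in males, 5 in females and 0 in SVC, beside 159, 206 and 76 of all genes. Without the 3 named libraries 6 of the 7 were called in males (15 genes in all), 5 in females (43 in all), 7 in the mean effect (81 in all) and Rpl29 alone of all genes in SVC. Those libraries were named for their place in these genes, so the rise in calls follows from that choice and is no support. In SVC, 2 controls were left in that fit. The median absolute log2 fold change of the 7 in the mean effect was 0.59, beside 0.11 over all genes tested.

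**Figure D3:**
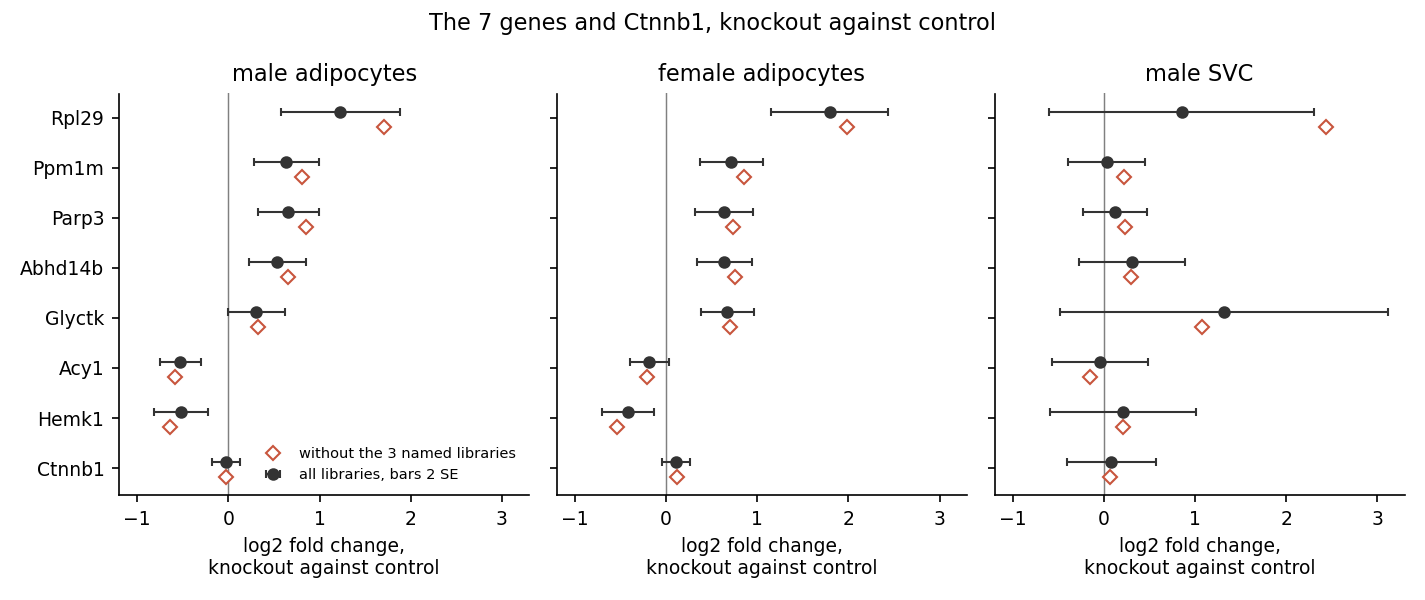
Log2 fold change, knockout against control (horizontal axis), of the 7 genes and Ctnnb1 in male adipocytes, female adipocytes and male SVC, over all libraries (points, bars of 2 SE) and without the 3 named libraries (diamonds). In adipocytes all 7 genes lie farther from 0 without the named libraries, Ctnnb1 stays near 0, and in SVC Rpl29 goes from 0.85 to 2.44. The libraries were named for their place in these genes, so the shift without them is a description.

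The 3 named libraries differed in how many of the 7 genes they carried to the other label. Male control adipocyte library 5 was nearer to the knockout mean than to the mean of the other controls in 6 of 7 genes, all but Glyctk. Female knockout adipocyte library 2 was nearer to the control mean in 6 of 7, again all but Glyctk. Male control SVC library 3 was nearer to the knockout mean in 3 of 7 genes, Rpl29, Ppm1m and Acy1. Of those, only Rpl29 had labels that separated in SVC without that library.

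Whether the named libraries crossed to the other label at other genes too was asked of the genes called in a fit that left all 3 out, a comparison chosen after seeing the data. Male control adipocyte library 5 was nearer to the knockout mean in 6 of the 6 members called in males in that fit, and in 3 of 8 called genes off chromosome 9 or without a position. Among genes called there in the mean effect over both sexes, it was nearer to the knockouts in 6 of the 7 members, in 24 of 63 such genes and in 5 of 11 other genes of chromosome 9. Female knockout adipocyte library 2 was nearer to the controls in 5 of the 5 members called in females, and in 6 of 36 called genes off the chromosome. In the mean effect the counts were 6 of the 7 members, 19 of 63 genes off the chromosome and 3 of 11 other genes of chromosome 9. The libraries were named for their place in the members, so the member counts are a description. In SVC the summed level of 5 mesothelial markers was 230 to 458 CPM in controls, with control library 3 the highest at 458 CPM, and 91.6 to 142 CPM in knockouts. In adipocytes it was 13.8 to 94.6 CPM in male controls, 4.83 to 21.0 CPM in male knockouts, 7.87 to 45.4 CPM in female controls and 7.21 to 15.3 CPM in female knockouts. The median log2 fold change of these markers was -1.44 in the mean effect, with 2 of 5 called lower by edgeR, -1.30 in males, -1.32 in females and -2.43 in SVC. Other marker lists differed in the mean effect too, with 0 genes called by edgeR. Their medians were -2.34 for 2 epithelial, -0.60 for 3 erythroid, -0.50 for 1 B cell and -0.46 for 6 macrophage markers. Progenitor, adipocyte and endothelial markers had -0.27, -0.10 and 0.12. The part of all these markers in the values of the 7 genes was not tested.

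Positions were read from RefSeq on GRCm38, since the submitters' build is mm39 and no annotation of that build was used here. Distances are between gene midpoints, and order counts protein-coding genes. Along the chromosome the 7 genes come as Glyctk, Ppm1m, Rpl29, Acy1, Abhd14b, Parp3 and Hemk1, at orders -8, -6, 0, 1, 3, 6 and 22 from Rpl29. Glyctk to Parp3 spans 0.317 Mb and 15 protein-coding genes, and Glyctk to Hemk1 spans 1.18 Mb and 31. Ctnnb1 is 14.5 Mb beyond Rpl29 on the side of Hemk1, at order 217, with 194 protein-coding genes between Hemk1 and Ctnnb1.

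The genes lying between the members were not called by edgeR. Of all 14227 genes tested, 2137 had an unadjusted p under 0.05 in the mean effect. Of 17 other tested genes from Glyctk to Hemk1, 7 did, a larger share, while edgeR called 0 of them and DESeq2 called 1 (Tex264). Their log2 fold changes ran from -0.34 to 0.87, with a median absolute value of 0.17. The nearest tested neighbours on either side of the members numbered 9, and had log2 fold changes from -0.64 to 0.19, with 0 called by edgeR or DESeq2 and 3 with an unadjusted p under 0.05 in the mean effect. In females alone DESeq2 called 1 of them (Rrp9). Members of opposite direction were neighbours: Acy1, at -0.35 (SE 0.08) in the mean effect, is the gene next to Rpl29, at 1.51 (SE 0.23).

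Within 5 Mb of Rpl29, 2 of 125 other tested genes were called in the mean effect, or 1.60%, beside 0.759% of all genes. They were Tusc2, at 1.13 Mb, with a log2 fold change of -0.28 (SE 0.06, adjusted p = 0.0284 by edgeR), and Pfkfb4, at 2.58 Mb, with 0.99 (SE 0.21, adjusted p = 0.0262 by edgeR). Pfkfb4 encodes an enzyme that sets the level of fructose 2,6-bisphosphate, an activator of glycolysis. Neither was called by edgeR in males, females or SVC alone. Within 5 Mb DESeq2 called 5 genes in males, 3 of them members, and 7 in females, 5 of them members. Left-out libraries gave an adjusted p of 0.009 to 0.0637 for Tusc2 and of 0.00681 to 0.0526 for Pfkfb4 by edgeR. The calls of Tusc2 ended without male control 1, male knockout 1, 2 or 4 or female control 3, and those of Pfkfb4 without male control 4 or male knockout 1. Female knockout library 2 lay with its own label for both genes, at 32.8 CPM for Tusc2 (other knockouts 32.5, controls 41.7) and 16.7 CPM for Pfkfb4 (other knockouts 14.4, controls 8.23). Male control library 5 lay nearer the knockouts for Tusc2, at 35.8 CPM (other controls 40.4, knockouts 33.7), and nearer its own label for Pfkfb4, at 15.8 CPM (other controls 10.6, knockouts 25.0).

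Called genes lay on both sides of the 7 genes. Between Hemk1 and Ctnnb1, 2 of 129 tested genes were called (1.55%), the same Tusc2 and Pfkfb4. Beyond Ctnnb1 0 of 32 were called by edgeR, with 3 at an unadjusted p under 0.05, beside 2137 of all 14227 genes. On the other side of Glyctk, away from Ctnnb1, 8 of 522 were called (1.53%). Over the whole chromosome 17 of 747 tested genes were called in the mean effect, or 2.28%, and 10 of 740 (1.35%) without the members, beside 84 of 12661 (0.663%) on the other chromosomes. The share on chromosome 18, 7 of 368 (1.90%), was above that of chromosome 9 without its members. A sequence variant that travels with the floxed or edited Ctnnb1 chromosome was not tested as the source of these levels, because counts carry no alleles.

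**Figure D4:**
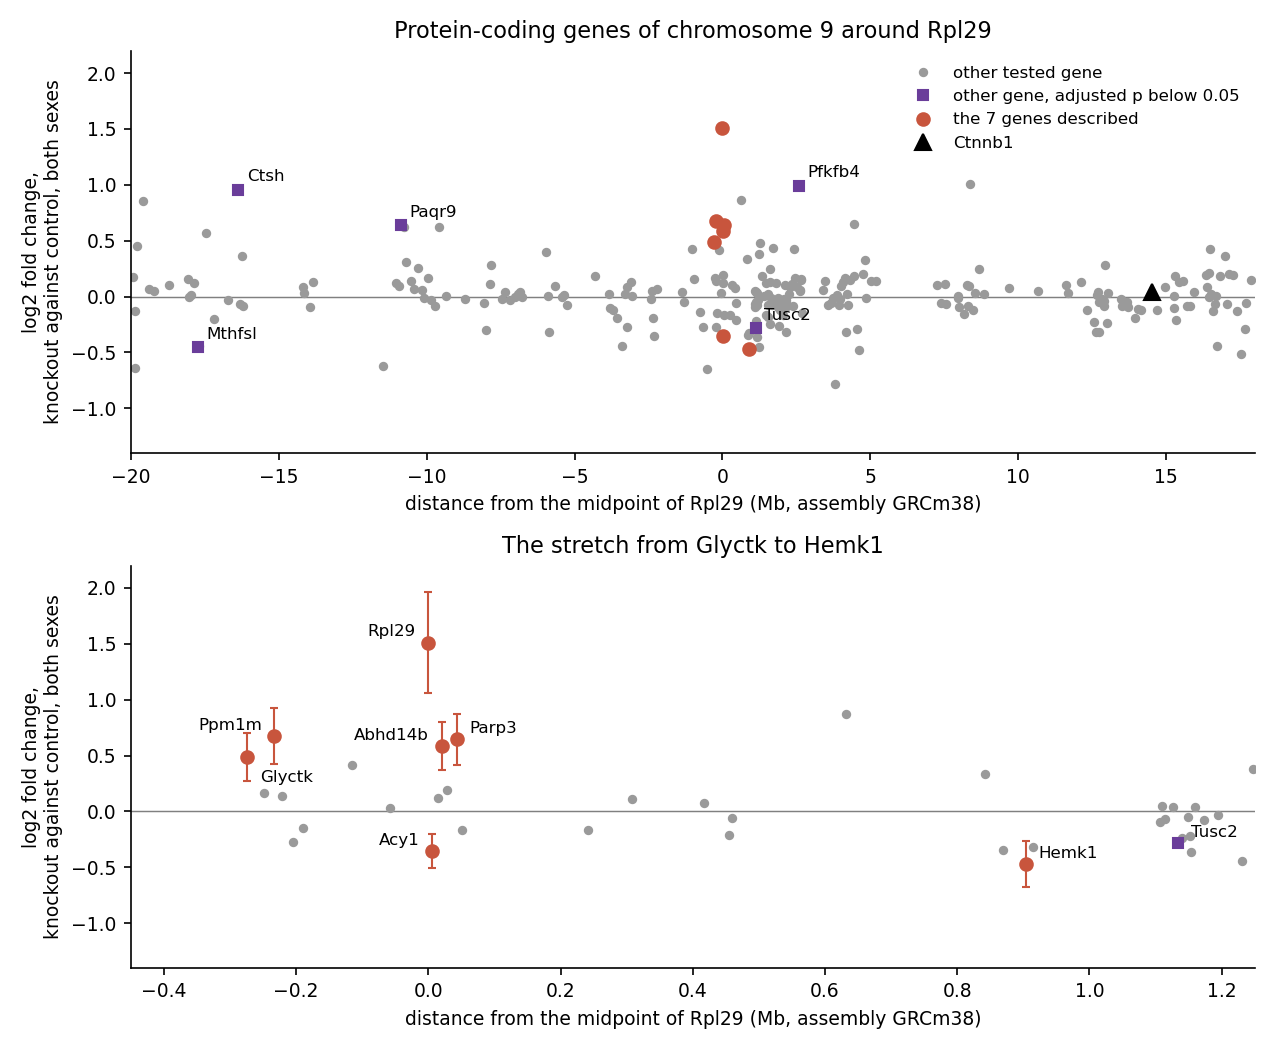
Log2 fold change, knockout against control, mean over both sexes (vertical axis) against distance from the midpoint of Rpl29 (horizontal axis, Mb), for tested protein-coding genes of chromosome 9. The upper panel reaches from 20 Mb before to 18 Mb after Rpl29 and shows Ctnnb1 at 14.5 Mb near 0; the lower panel shows the 7 members (bars of 2 SE) among neighbours, of which those from Glyctk to Hemk1 lie between -0.34 and 0.87.

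Rpl29 and Gm8210, 1 of its copies, differed between the labels in opposite directions. All 45 annotated genes in the table that share sequence with Rpl29 had a count, but 3 had a mean of at least 1 CPM, and Gm8210 and Gm13841 made up 85.3% of the summed CPM of the copies. Gm8210 was in male adipocytes at 12.2, 11.7, 9.73, 9.16, 5.17 and 8.04 CPM in controls and at 3.77, 4.75, 4.25, 4.63 and 5.10 CPM in knockouts. In female adipocytes it was at 11.3, 12.7, 11.1, 12.6, 8.56 and 9.22 CPM in controls and at 4.50, 11.8, 4.94, 5.97, 4.63 and 5.97 CPM in knockouts. Male control library 5 was the lowest control and female knockout library 2 lay inside the control range, so both followed the other label here as at Rpl29. In SVC the controls were at 7.67, 6.67 and 7.07 CPM and the knockouts at 3.58, 4.19, 4.74 and 5.83 CPM, and control library 3, high in Rpl29, stayed with the controls.

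The log2 fold change of Gm8210 in the mean effect was -0.90 (SE 0.15, adjusted p = 0.00462 by edgeR), with -1.09 in males, -0.72 in females and -0.61 in SVC, none of these 3 called alone. Its call held as each of the 23 libraries was left out (adjusted p from 5.62e-05 to 0.0113 by edgeR). Gm13841 had -0.62 (SE 0.18, adjusted p = 0.107 by edgeR), and 4931440P22Rik, the third copy above 1 CPM, had -0.09 (SE 0.17, adjusted p = 0.848 by edgeR). Copies under 1 CPM were not tested and went both ways. Gm10709, on chromosome 9, had means of 0.136 CPM in male controls and 0.345 CPM in male knockouts, and 0.0465 and 0.274 CPM in females. Gm6344 was higher in knockouts too, at 0.0302 and 0.155 CPM in males. Gm15454 was lower, at 0.128 and 0.0548 CPM in males. Rpl29 and its copies together were at 42.9 to 52.3 CPM in male control adipocytes without library 5 and at 100.1 to 138.7 CPM in knockouts. In females the sum was at 36.3 to 58.2 CPM in controls and, without library 2, at 97.7 to 158.8 CPM in knockouts. The annotation holds 82 genes that share sequence with Rpl29, of which these 45 are in the table, and reads that the counting left unassigned were not analysed here, so the part of read assignment in the level of Rpl29 was not tested.

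**Figure D5:**
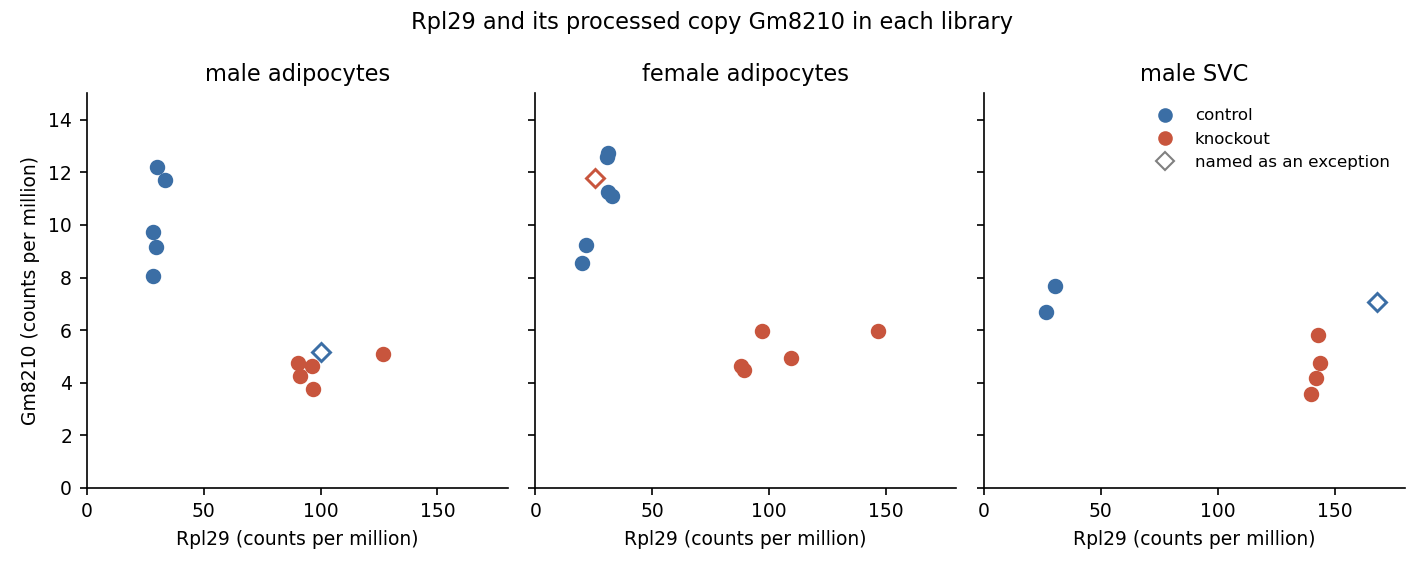
Level of Gm8210 (vertical axis, CPM) against that of Rpl29 (horizontal axis, CPM) in each library of male adipocytes, female adipocytes and male SVC. In adipocytes the libraries form a group with low Rpl29 and Gm8210 at 8.04 to 12.7 CPM and a group with high Rpl29 and Gm8210 at 3.77 to 5.97 CPM, and the diamonds lie in the group of the other label.

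Levels between genes were compared per kilobase of the longest annotated transcript. Among the 7 genes in male control adipocytes, Ppm1m was at 50.7 and Rpl29 at 49.4 CPM per kilobase, above Parp3 at 25.2, Abhd14b at 18.9, Hemk1 at 15.7, Acy1 at 7.93 and Glyctk at 0.672. Rpl29 was low for its class in controls. Among 46 large-subunit ribosomal protein genes it ranked 3 from the lowest in male control adipocytes without library 5, at 35.5 CPM per kilobase, and 13 in male knockouts, at 118.5, beside medians of the other 45 genes of 198 and 193. In females it ranked 3 in controls, at 33.0 CPM per kilobase, and 10 in knockouts, at 109.7, or 125.5 without library 2. These levels depend on how reads shared with copies were counted.

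Other genes of the members' families were not called by edgeR. Of 111 tested genes in 7 lists that are not members, 0 were called by edgeR in males, females or the mean effect. In these comparisons 11, 8 and 10 of them had an unadjusted p under 0.05, beside 1861, 1469 and 2137 of all 14227 genes. DESeq2 called 2 in males (Parp6 and Rpl19), 0 in females and 1 in the mean effect (Rpl19). The large ribosomal subunit list had 44 tested genes with a median log2 fold change of -0.12, and its gene of smallest p was Rpl19 at -0.34 (SE 0.08, adjusted p = 0.0593 by edgeR). The PARP list (14 genes) had Parp6, a gene of chromosome 9, at -0.18 (SE 0.06, adjusted p = 0.136 by edgeR). In the ABHD list (18 genes) Abhd17b was at 0.29 (SE 0.09, adjusted p = 0.123 by edgeR). The PPM phosphatases (16 genes), aminoacylases (5), glycerate and fructose genes (8) and mitochondrial release factor genes (6) had medians of 0.00, 0.03, -0.14 and 0.02, and their genes of smallest p were Pptc7, Aspa, Grhpr and Mrrf, with adjusted p by edgeR of 0.531, 0.328, 0.178 and 0.455.

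Which genes varied most like Rpl29 was measured as Pearson's r over the 30 libraries on log2(CPM + 1), centred within male adipocytes, female adipocytes and SVC, among 11396 genes with a mean of at least 1 CPM in each set. The points share libraries, and r is a description here. Among members r was 0.80 for Ppm1m, the highest of all genes, 0.78 for Parp3 (rank 3), 0.63 for Abhd14b, 0.35 for Glyctk and -0.59 for both Acy1 and Hemk1. This centring keeps the difference between labels, on which the members were chosen. Centred within each of the 6 groups, r was 0.70 for Ppm1m, 0.60 for Parp3, 0.31 for Abhd14b, -0.03 for Glyctk, -0.34 for Acy1 and -0.39 for Hemk1, with the named libraries in. The members were chosen with those libraries named for their place in these genes, so these values follow from that choice too and are no support. The 10 non-members of largest absolute r were Gm8210 at -0.79, Axin2 at -0.74, Ndc1 at 0.71, Hyal3 at -0.71, Snx33, Zfp213 and Twnk at -0.70, -0.70 and -0.69, Parp6 at -0.69, Rtn4 at 0.69 and Prickle1 at -0.69. Hyal3, Snx33 and Parp6 lie on chromosome 9, and the other 7 on chromosomes 1, 11, 4, 17, 19, 11 and 15. Centred within the 6 groups, r was -0.62 for Snx33, -0.59 for Hyal3 and Axin2 and -0.56 for Twnk. The smallest absolute value of the 10 was that of Ndc1, at 0.38. Likeness of this size within groups was therefore not limited to members. Axin2, a feedback inhibitor and known target of the Wnt signal, had a log2 fold change of -0.65 in the mean effect (adjusted p = 0.0816 by edgeR). Of 627 chromosome 9 genes other than Rpl29, 14 (2.23%) had an absolute r of at least 0.6, beside 60 of 10477 (0.573%) on the other chromosomes. Of these 14, 11 were not members, and the rest were Ppm1m, Parp3 and Abhd14b.

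The sexes and the fractions were compared in control libraries alone. Whether the sexes match in depot cannot be told from the labels. The 7 genes were not chosen on these contrasts, but their choice did draw on the control libraries, 2 of the named ones among them. The named libraries were set apart for their place in these genes, so results without them are descriptions. Between female and male control adipocytes, 43.8% of 14227 genes were called by edgeR, and 3 of the 7 members were, 1 higher in females (23.7% of all genes) and 2 lower (20.1%). Ppm1m was lower in females, with a log2 difference of -0.79 (SE 0.17, adjusted p = 0.000755), and every female control, at 45.3 to 63.5 CPM, was below every male control, at 77.2 to 147.0 CPM. Abhd14b was lower too, at -0.54 (SE 0.15, adjusted p = 0.00604 by edgeR). Acy1 was higher, at 0.28 (SE 0.11, adjusted p = 0.0384 by edgeR), a call lost without the named libraries (adjusted p = 0.152) and in 12 other settings. Parp3, at 0.30 (SE 0.16), was not called over all libraries and was called without them, at 0.47 (adjusted p = 0.000968 by edgeR). Rpl29 had -0.61 (SE 0.31, adjusted p = 0.122 by edgeR) over all libraries and -0.16 (adjusted p = 0.336) without the named libraries, so its gap between the sexes rested on male control library 5.

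Between male control adipocytes and male control SVC, 77.1% of 17251 genes were called by edgeR, with 32.8% higher in adipocytes, and 6 of the 7 members were higher in adipocytes. The median over all genes was -0.29. Libraries of the 2 fractions that share a column number were taken as separate in this test. Hemk1 had the largest difference of the 7, at 2.89 (SE 0.29, adjusted p = 9.57e-08 by edgeR), with 19.9 to 40.3 CPM in adipocytes and 6.14 to 7.67 CPM in SVC. Parp3 had 1.82 (SE 0.22), Glyctk 1.72 (SE 0.55), Abhd14b 1.59 (SE 0.24), Ppm1m 1.37 (SE 0.22) and Acy1 0.94 (SE 0.20). Glyctk was not called without the named libraries, at 1.52 (adjusted p = 0.0588 by edgeR). Rpl29 had -0.42 (SE 0.53, adjusted p = 0.473 by edgeR) over all libraries and 0.73 (adjusted p = 0.000278 by edgeR) without the named libraries, so its direction turned with them. Those libraries were named for their place in these genes, and 2 SVC controls were left without them. The adjusted p without them is therefore a description. The summed adipocyte markers in SVC, 984 to 1423 CPM in controls and 1614 to 2172 CPM in knockouts, did not overlap between labels, and their part in the SVC values of these genes was not tested.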

How the data were processed

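What the authors deposited is a table of whole-number counts for 35120 genes, 33501 of them with a symbol, and a table of regularised log2 values from DESeq2, per the file headers. The tools in the submitters' processing notes are STAR 2.7.11a, FastQC 0.12.1 and DESeq2, with build mm39. How reads were counted, with which strand setting and annotation, is not given in the sources used here. Direction was the same in the deposited log2 values for 7 of 7 genes in each set. Every per-sample column was used (0 left over). Libraries of a group differed by more than counting noise (lowest chi-square per degree of freedom 12.9 over 64 pairs).

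The 7 genes and the gene lists were chosen with earlier results of these data known. Tests used edgeR 4.0.16 in R 4.3.3 (quasi-likelihood F-test, TMM, filterByExpr with minimum count 10, robust), with Benjamini-Hochberg adjustment over all genes tested and calls below 0.05. The main model held the 23 adipocyte libraries as 4 groups, and separate models held the 7 SVC libraries and, for the fractions, the 18 male libraries. Scripts were tested on simulated data. Named genes were the 7 members, Ctnnb1, called genes within 5 Mb, the 10 most like Rpl29, the called gene or that of smallest p in each family list, and copies of Rpl29 by level. Alternatives were RLE and upper-quartile scaling, looser and stricter filters, DESeq2 1.42.0, limma-voom (limma 3.58.1), replicate blocks, fewer groups in the fit and left-out libraries.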

Additional observations from a re-analysis of the deposited data

Results flagged for a closer look

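In groups of 4 or more libraries, a library was singled out when its gap to the nearest other was large against the group's range, which chance does in about 1 group in 20. Of 40 groups of the 7 genes and Ctnnb1 tested, 10 held such a library. The genes were chosen with 2 of these libraries named as exceptions, so the count is a description. Male control adipocyte library 5 accounted for 5. It was high in Rpl29 at 100.1 CPM (others 28.3 to 33.4), in Ppm1m at 147.0 CPM (others 77.2 to 87.6), in Parp3 at 122.1 CPM (others 59.9 to 70.9) and in Abhd14b at 46.3 CPM (others 27.4 to 33.8), and low in Hemk1, at 19.9 CPM (others 34.4 to 40.3). Female knockout adipocyte library 2 was low in Ppm1m, at 42.5 CPM (others 84.9 to 101.0), low in Parp3, at 86.7 CPM (others 138.2 to 155.1), and high in Hemk1, at 36.4 CPM (others 23.1 to 27.2). Male knockout adipocyte library 5 was high in Rpl29, at 126.7 CPM (others 90.2 to 96.7). Male knockout SVC library 4 was high in Hemk1, at 13.9 CPM (others 5.47 to 5.66). That SVC library also had the highest Glyctk, at 8.16 CPM.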

How the results depend on the processing

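Called genes in male adipocytes (10) numbered 159 with DESeq2, 6 with only the groups compared and 17 with the replicate number as a block, and within 5 Mb of Rpl29 (0) they numbered 5 with DESeq2, 6 without the named libraries and 1 with only the groups compared. In female adipocytes the 67 became 206 with DESeq2, 43 without the named libraries and 26 with only the groups compared, and the 2 within 5 Mb became 7 with DESeq2, 5 without the named libraries and 1 with no filter. In the mean effect the 108 became 350 with DESeq2 and 180 with the replicate block, and the 9 within 5 Mb became 5 with no filter. In SVC the 0 became 76 with DESeq2, 1 without the named libraries (Rpl29, also the 1 within 5 Mb) and 1 with the replicate block. Leaving out each library in turn gave 4 to 332 calls in males (most without knockout library 5), 32 to 89 in females, 60 to 246 in the mean effect and 0 to 1 in SVC, and within 5 Mb 0 to 5, 1 to 5, 5 to 10 and 0 to 1. Between the sexes it gave 5548 to 6325 and between fractions 12259 to 13482. Deviations from the group means had r of -0.16 to 0.54 over 11 same-numbered adipocyte pairs of the 2 labels (median 0.11, and -0.01 over 55 other pairs). Same-numbered pairs of the 2 fractions had r of -0.04 to 0.25, with 5 of 6 above 0.1 (median 0.19, and -0.04 over 32 other pairs). These values do not settle whether same-numbered libraries share a mouse. The main tests took all libraries as separate, so p-values between fractions ignore any such pairing. The block left every member's direction in adipocytes as it was. Rpl29 between fractions (-0.42) was 0.0688 with limma-voom, 0.73 without the named libraries and 0.39 with the replicate block, and -0.90 to 1.21 as each library was left out, the highest without SVC control 3. Between the sexes Hemk1 (0.10) was -0.0420 without the named libraries and -0.0330 to 0.14 as each library was left out, and Glyctk (0.07) -0.0294 to 0.12. The Acy1 call between the sexes was lost in 13 of its settings, and 10 settings ended a call of Tusc2 or Pfkfb4. Causes were not tested. Glyctk, at 0.566 to 8.16 CPM, is the gene whose values depth limits most.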
